A study of Rattus norvegicus with 12 samples.

Results

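Immediate early genes are the first genes a neuron transcribes after synaptic activity, and the 10 described here are Fos, Fosb, Jun, Junb, Egr1, Egr2, Arc, Nr4a1, Dusp1 and Btg2. They were chosen by their Ensembl identifiers, and all 10 have a row among the 32662 identifiers of the count tables and passed the low-count filter of every comparison. The data are RNA sequencing of laser-microdissected cell bodies of the CA1 pyramidal layer in the hippocampus of adult male Wistar rats, with 12 libraries in 4 groups of 3. Superficial and deep epileptic libraries came from 3 rats given intraperitoneal kainate, an agonist of ionotropic glutamate receptors, at 5 mg/kg each hour until status epilepticus, a continuous seizure of more than 30 min. Diazepam at 4 mg/kg stopped the convulsions 1 h later, and RNA was taken in the chronic phase 6 to 8 weeks after status. Superficial and deep control libraries came from 3 rats given vehicle, either saline or DMSO, and otherwise handled alike. The labels give an age of 45 to 50 days for all rats, without saying whether this is at injection or at sampling. With RNA taken 6 to 8 weeks after status, it cannot be the age at sampling of rats injected as adults. Spontaneous seizures were seen on handling or recorded in only some of the epileptic animals, and neither the time since a rat's last seizure nor the time since handling is given in the sources used here. The labelled pyramidal layer could not be set against marker genes, because the tables carry identifiers without names. The symbols of the 10 genes come with the list of their identifiers.

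In resting neurons immediate early genes are nearly silent or held at a low level. Calcium entry during activity activates kinases that act on factors already bound at their promoters, among them serum response factor, which binds the CArG box, and CREB, which binds the cAMP response element with the core TGACG. The transcripts appear and decay quickly, and in the hippocampus they serve as a trace of recent neuronal activity that seizures induce strongly. Most encode transcription factors that pass the signal on to later genes, while others act at synapses or end the kinase signal.

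Promoter sequences from RefSeq (build GRCr8, 250 bases before to 50 bases after the annotated start) were matched by symbol for 7 of the 10 genes. Those of Egr1 and Egr2 are shown because these genes had the lowest levels in epileptic relative to control rats, that of Nr4a1 because it differed between the sublayers in both conditions, and that of Fosb because its levels ran the other way. Capitals mark every CArG box and every TGACG on either strand.
Egr1 (chr18:26736828-26737127, plus strand): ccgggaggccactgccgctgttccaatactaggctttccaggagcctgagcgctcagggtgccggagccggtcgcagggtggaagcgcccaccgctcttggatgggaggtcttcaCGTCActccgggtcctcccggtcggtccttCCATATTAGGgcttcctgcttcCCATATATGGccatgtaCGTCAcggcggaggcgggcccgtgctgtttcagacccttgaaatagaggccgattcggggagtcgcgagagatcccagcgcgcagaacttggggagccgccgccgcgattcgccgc
Egr2 (chr20:21054392-21054691, minus strand): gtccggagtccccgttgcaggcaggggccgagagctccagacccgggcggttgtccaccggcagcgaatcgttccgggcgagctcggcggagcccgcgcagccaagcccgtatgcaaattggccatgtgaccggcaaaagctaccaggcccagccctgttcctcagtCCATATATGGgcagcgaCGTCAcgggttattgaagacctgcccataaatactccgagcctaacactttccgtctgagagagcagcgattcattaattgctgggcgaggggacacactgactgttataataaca
Nr4a1 (chr7:134259888-134260187, plus strand): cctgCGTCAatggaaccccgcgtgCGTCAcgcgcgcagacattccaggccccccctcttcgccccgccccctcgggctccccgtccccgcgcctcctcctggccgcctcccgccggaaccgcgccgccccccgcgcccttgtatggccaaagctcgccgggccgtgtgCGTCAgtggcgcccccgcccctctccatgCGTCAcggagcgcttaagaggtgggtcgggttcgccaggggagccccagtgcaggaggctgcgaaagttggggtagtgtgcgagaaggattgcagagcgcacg
Fosb (chr1:88089135-88089434, minus strand): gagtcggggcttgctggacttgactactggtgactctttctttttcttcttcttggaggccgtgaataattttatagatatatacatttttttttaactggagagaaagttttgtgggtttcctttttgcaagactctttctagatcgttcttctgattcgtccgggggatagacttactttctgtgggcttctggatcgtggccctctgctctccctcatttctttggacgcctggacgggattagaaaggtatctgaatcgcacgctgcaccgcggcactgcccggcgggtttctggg
A CArG box was found 105 and 83 bases before the start of Egr1 and 83 bases before the start of Egr2, and in none of the other 5 windows, while 1.64% of the 33469 promoters in the table held one. TGACG was found in the windows of Junb, Egr1, Egr2, Nr4a1, Dusp1 and Btg2, against 21.2% of all promoters. Nr4a1 held 4 copies and Egr1 held 2. In Dusp1 and Btg2 copies on both strands overlapped to form the full palindrome TGACGTCA. The Fosb window held no match to either motif. These matches describe letters in the window only.

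Libraries held 20623196 to 25893962 gene counts in epileptic and 16135358 to 19550582 in control rats. Each of the 10 genes had between 30 and 5773 counts in every library. Levels are given in CPM, the gene's counts over the scaled size of its library, and are compared between libraries of 1 gene, not between genes. The share of alignments outside annotated exons was 37.7 and 43.0% in the superficial and deep libraries of epileptic animal 1 and 22.3 to 26.7% in those of epileptic animals 2 and 3, against 35.8 to 44.0% in control libraries. Its part in the results was not tested beyond the fit with this share as a covariate.

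**Figure D1:**
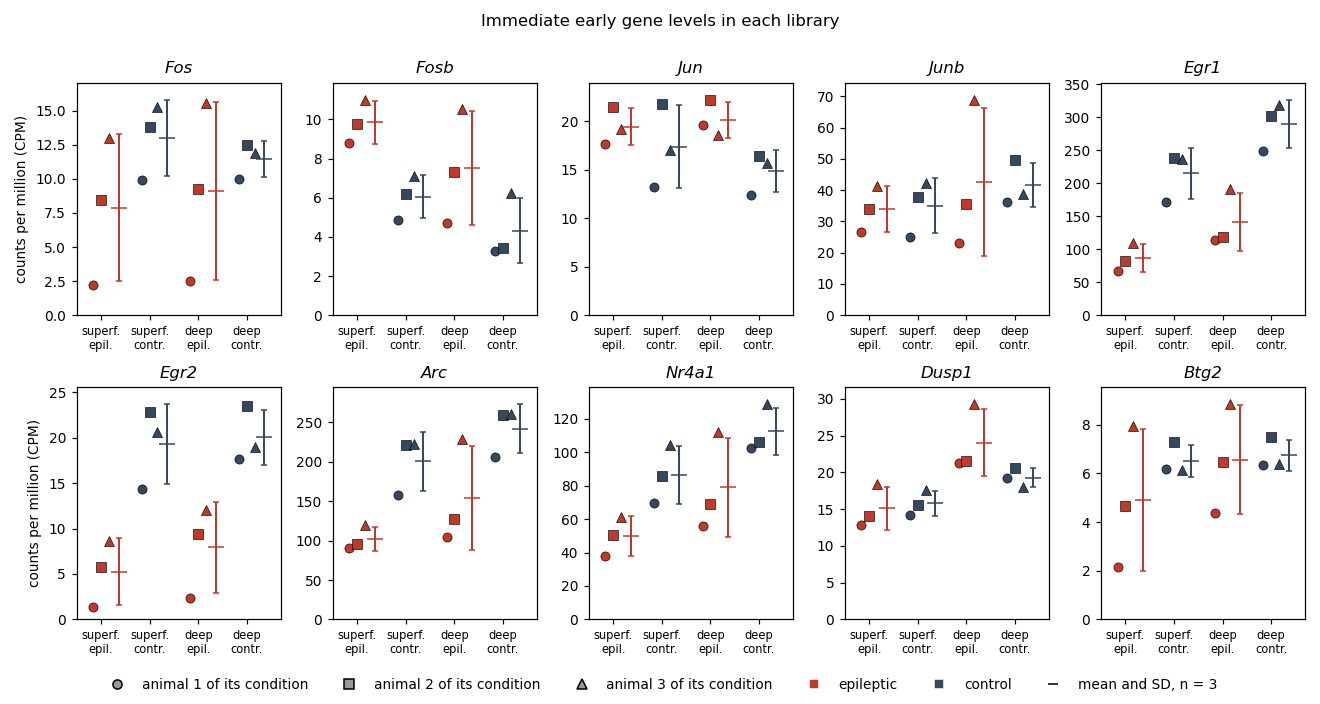
CPM of each gene (y axis) in each library, by sublayer and condition (x axis), with red for epileptic and dark blue for control rats, a symbol per animal, and the mean with SD of the 3 libraries beside the points. Egr1 and Egr2 points of epileptic rats lie below all control points of the same sublayer, while the Fos and Egr2 points of epileptic animal 1 are the lowest of their sublayer.

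Epileptic rats were set against control rats in each sublayer to ask how chronic epilepsy relates to the level of these genes. The zinc-finger transcription factors Egr1 and Egr2, the synaptic protein gene Arc and the nuclear receptor gene Nr4a1 were 1.70 to 3.59-fold lower in superficial and 1.42 to 2.53-fold lower in deep CA1 of epileptic rats on average. Fosb was 1.65-fold higher in superficial and 1.74-fold higher in deep CA1. None of the 10 genes passed the adjusted threshold of 0.05 in edgeR's quasi-likelihood test of 3 against 3 animals in either sublayer, so none is counted as changed. Among all genes tested 0.0140% passed in superficial and 0% in deep CA1. At an unadjusted p below 0.05 lay 5 of the 10 genes in superficial CA1, against 18.9% of all genes, and 5 in deep CA1, against 13.7%. The median log2 fold change of the 10 genes was −0.54 in superficial and −0.19 in deep CA1, beside 0.007 and 0.001 over all genes. In bulk tissue, fewer cells of a type and less RNA per cell cannot be told apart.

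Egr1 (ENSRNOG00000019422) is a zinc-finger transcription factor with a steady level in CA1 pyramidal cells that follows their ongoing activity. In superficial CA1 it had 67.0, 82.8 and 109 CPM in epileptic animals 1, 2 and 3, against 171, 238 and 237 CPM in control animals 1, 2 and 3 (log2 fold change −1.30, SE 0.21, adjusted p = 0.0831). In deep CA1 it had 113, 118 and 192 CPM in epileptic animals, against 248, 302 and 318 CPM in control animals (log2 fold change −1.04, SE 0.20, adjusted p = 0.121). The groups did not overlap in either sublayer, and the highest epileptic library was below the lowest control library. With the replicate number as a block, deep Egr1 passed at a log2 fold change of −1.07 (adjusted p = 0.0137, range over its alternatives 7.57e-05 to 0.449). Epileptic and control animals of 1 number are different rats, so this block is not a pairing given by the design.

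Egr2 (ENSRNOG00000000640), its close relative, showed the largest average difference of the 10 genes and a wide spread among epileptic animals. Superficial libraries had 1.39, 5.75 and 8.64 CPM in epileptic animals, against 14.4, 22.8 and 20.6 CPM in control animals (log2 fold change −1.85, SE 0.60, adjusted p = 0.215). Deep libraries had 2.34, 9.39 and 12 CPM in epileptic animals, against 17.7, 23.4 and 18.9 CPM in control animals (log2 fold change −1.34, SE 0.47, adjusted p = 0.290). Here too the groups did not overlap. Epileptic animal 1 held the lowest level in both sublayers, with 30 and 49 counts, while the controls differed among themselves by less than a factor of 2.

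Arc (ENSRNOG00000043465) encodes a cytoskeleton-associated protein that promotes the removal of AMPA receptors from synapses. In superficial CA1 it had 90.8, 95.6 and 119 CPM in epileptic animals, against 158, 221 and 223 CPM in control animals (log2 fold change −0.96, SE 0.17, adjusted p = 0.0822), without overlap. In deep CA1 the levels were 105, 128 and 228 CPM in epileptic animals, against 206, 258 and 261 CPM in control animals (log2 fold change −0.65, SE 0.26, adjusted p = 0.333). There the groups overlapped, because epileptic animal 3 lay within the control range.

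Nr4a1 (ENSRNOG00000007607), an orphan nuclear receptor induced with the Egr genes, followed the same layout. It had 37.8, 50.6 and 61.3 CPM in superficial libraries of epileptic animals, against 69.4, 85.5 and 104 CPM in control animals (log2 fold change −0.77, SE 0.21, adjusted p = 0.178). Deep libraries had 55.6, 69.0 and 112 CPM in epileptic animals, against 103, 106 and 129 CPM in control animals (log2 fold change −0.51, SE 0.24, adjusted p = 0.389). The superficial groups did not overlap, and in deep CA1 epileptic animal 3 again lay within the control range.

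The Fos family encodes partners of Jun proteins in the transcription factor AP-1. Fosb (ENSRNOG00000046667) is known for a truncated splice product, ΔFosB, that outlasts the transcript and builds up with repeated stimulation; counts per gene do not separate the splice forms. Fosb had 8.78, 9.79 and 11.0 CPM in superficial libraries of epileptic animals, against 4.88, 6.21 and 7.09 CPM in control animals (log2 fold change 0.72, SE 0.18, adjusted p = 0.135), without overlap. In deep CA1 it had 4.72, 7.32 and 10.5 CPM in epileptic animals, against 3.28, 3.45 and 6.23 CPM in control animals (log2 fold change 0.80, SE 0.34, adjusted p = 0.343). Deep epileptic animal 1 lay within the control range and the other two lay above it.

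Fos (ENSRNOG00000008015) itself spread widely among epileptic animals. It had 2.23, 8.48 and 13.0 CPM in superficial libraries of epileptic animals, against 9.90, 13.8 and 15.3 CPM in control animals (log2 fold change −0.69, SE 0.59, adjusted p = 0.549). In deep CA1 it had 2.48, 9.24 and 15.6 CPM in epileptic animals, against 9.95, 12.5 and 11.9 CPM in control animals (log2 fold change −0.34, SE 0.52, adjusted p = 0.818). Epileptic animals 1 and 2 were below all controls in both sublayers, animal 1 by far the more, and animal 3 lay within or above their range. Without epileptic animal 1 the log2 fold change was −0.24 in superficial (adjusted p = 0.556) and 0.12 in deep CA1 (adjusted p = 0.773).

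The Jun proteins bind DNA with Fos partners or with each other. Jun (ENSRNOG00000026293) had 19.6, 22.2 and 18.6 CPM in deep libraries of epileptic animals, against 12.4, 16.4 and 15.7 CPM in control animals, without overlap (log2 fold change 0.44, SE 0.14, adjusted p = 0.245). Superficial libraries had 17.7, 21.4 and 19.2 CPM in epileptic animals, against 13.2, 21.8 and 17 CPM in control animals (log2 fold change 0.18, SE 0.18, adjusted p = 0.590), and these ranges overlapped. Junb (ENSRNOG00000042838), a Jun relative that can restrain Jun, averaged 34.0 ± 7.27 CPM in superficial epileptic and 35.0 ± 8.83 CPM in superficial control libraries (SD, n = 3 each; log2 fold change −0.02, SE 0.23, adjusted p = 0.970). Deep Junb averaged 42.5 ± 23.6 CPM in epileptic and 41.6 ± 7.08 CPM in control libraries (SD, n = 3 each), with epileptic animals at 23.2, 35.6 and 68.8 CPM (log2 fold change 0.03, SE 0.35, adjusted p = 0.979). Its epileptic deep libraries reached both below and above all control libraries.

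Dusp1 (ENSRNOG00000003977) encodes a phosphatase that switches off MAP kinases, and Btg2 (ENSRNOG00000003300) an antiproliferative protein that promotes mRNA deadenylation. Dusp1 had 21.3, 21.5 and 29.3 CPM in deep libraries of epileptic animals, against 19.3, 20.6 and 18.0 CPM in control animals, without overlap (log2 fold change 0.32, SE 0.14, adjusted p = 0.381). Superficial Dusp1 overlapped, at 12.8, 14 and 18.5 CPM in epileptic and 14.3, 15.6 and 17.6 CPM in control animals (log2 fold change −0.05, SE 0.16, adjusted p = 0.895). Btg2 had 2.14, 4.65 and 7.93 CPM in superficial epileptic animals, against 6.17, 7.28 and 6.12 CPM in control animals (log2 fold change −0.39, SE 0.43, adjusted p = 0.648). Deep libraries had 4.39, 6.45 and 8.85 CPM in epileptic animals, against 6.35, 7.48 and 6.41 CPM in control animals (log2 fold change −0.04, SE 0.25, adjusted p = 0.961). Control Btg2 levels were tight and epileptic ones spread around them to both sides.

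Counting each gene by whether its groups overlapped, 4 genes lay wholly below the controls in superficial CA1 (Arc, Egr1, Egr2 and Nr4a1), against 13.0% of all genes, and 1 wholly above (Fosb), against 11.2%. In deep CA1 Egr1 and Egr2 lay wholly below, against 9.75% of all genes, and Dusp1 and Jun wholly above, against 8.93%. With the counts of both sublayers summed per animal, Arc, Egr1 and Egr2 lay wholly below, against 12.3%, and Fosb wholly above, against 11.1%. Summed log2 fold changes were −1.58 (SE 0.55, adjusted p = 0.238) for Egr2, −1.15 (SE 0.21, adjusted p = 0.0956) for Egr1, −0.80 (SE 0.23, adjusted p = 0.190) for Arc and 0.76 (SE 0.23, adjusted p = 0.204) for Fosb, and none of the 10 genes passed, with 0.0325% of all genes passing.

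Other tests and smaller sets of animals gave calls where edgeR gave none. In DESeq2, Fosb, Egr1, Arc and Nr4a1 passed in superficial CA1 at log2 fold changes of 0.73, −1.29, −0.95 and −0.76 (adjusted p = 0.0282, 3.48e-08, 4.77e-06 and 0.00824 in that order), and Egr1 in deep CA1 at −1.03 (adjusted p = 7.57e-05), while 885 genes in all passed in superficial and 376 in deep CA1. Without epileptic animal 1, Fosb, Egr1, Egr2 and Arc passed in superficial CA1, among 1443 genes in all, and Egr1 and Egr2 in deep CA1, among 552. Without epileptic animal 3, Egr1 and Arc passed in superficial CA1, among 409 genes, and Egr1, Arc and Nr4a1 in deep CA1, among 275. More calls were thus made over all genes too in these fits. Without epileptic animal 2 or any 1 control animal none of the 10 passed. When the model held the share outside exons as a covariate, deep Fos, Egr1 and Egr2 passed at log2 fold changes of −2.17, −1.41 and −3.02 (adjusted p = 0.00848, 0.0324 and 0.000964), among 99 genes in all. In superficial CA1 none of the 10 passed in this fit. Some log2 fold changes there were also further from 0, at −3.79 for Egr2 and −1.77 for Egr1 (adjusted p = 0.0902 for each). Fos lay at −2.55 (adjusted p = 0.325) and Btg2 at −1.64 (adjusted p = 0.402). Fosb moved towards 0, to 0.49 in superficial (adjusted p = 0.827) and 0.16 in deep CA1 (adjusted p = 0.918). Deep Dusp1 moved to 0.09 (adjusted p = 0.880) and superficial Jun to −0.14 (adjusted p = 0.999). Only epileptic animal 1 had a share outside exons within the control range of its sublayer, so the covariate fits lean on that rat. Relative to the control mean, its deep library alone lay at −2.16 for Fos, −1.34 for Egr1 and −3.04 for Egr2. Its superficial library lay at −2.47 for Fos and −3.67 for Egr2.

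**Figure D2:**
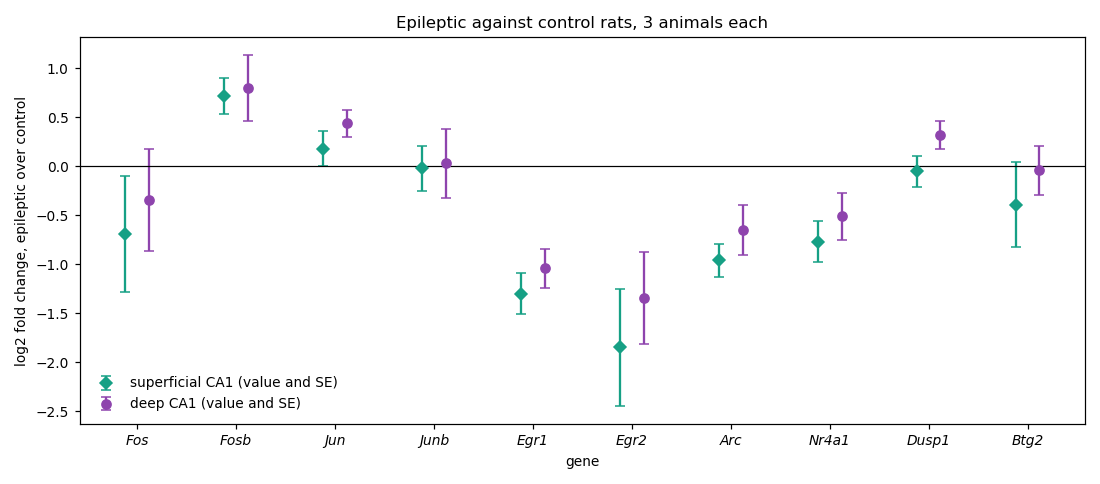
Log2 fold change of epileptic over control rats (y axis) for each gene (x axis), with diamonds for superficial and circles for deep CA1 and bars for the SE. Egr1, Egr2, Arc and Nr4a1 lie below 0 in both sublayers, down to −1.85 for superficial Egr2, and Fosb lies above 0 in both.

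The 3 epileptic animals differed from each other in most of the 10 genes in a shared order, a pattern described after the values were seen. Animal 1 was lowest and animal 3 highest in 9 of the 10 genes in superficial CA1, against 24.8% of all genes. The same held for 9 in deep CA1, against 27.4%, and Jun was the exception in both. Control animal 1 was also lowest of its 3, in every gene but Btg2 in superficial and every gene but Dusp1 in deep CA1. The full order also held in superficial control libraries for Fos, Fosb, Junb, Arc, Nr4a1 and Dusp1. A low animal 1 was thus not particular to epileptic rats, and shares of all genes in control rats were not computed. Superficial Egr2 of control animal 1 lay at −0.39 and superficial Fos at −0.37 relative to the control mean. Relative to the mean log2 CPM of the control libraries, superficial Egr2 lay at −3.67, −1.70 and −1.12 in epileptic animals 1, 2 and 3 and superficial Btg2 at −1.56, −0.48 and 0.28. Superficial Fos lay at −2.47, −0.59 and 0.02 and deep Fos at −2.16, −0.30 and 0.45 in the same animals. For Egr1, Egr2 and Arc every epileptic library was below the control mean, although deep Arc of animal 3 was so only by −0.07. For Fosb and Jun every epileptic library was above it. In these genes the animals differed in the size of the difference and not in its direction. The genes were read from the same libraries, and their order is therefore not 10 separate observations.

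**Figure D3:**
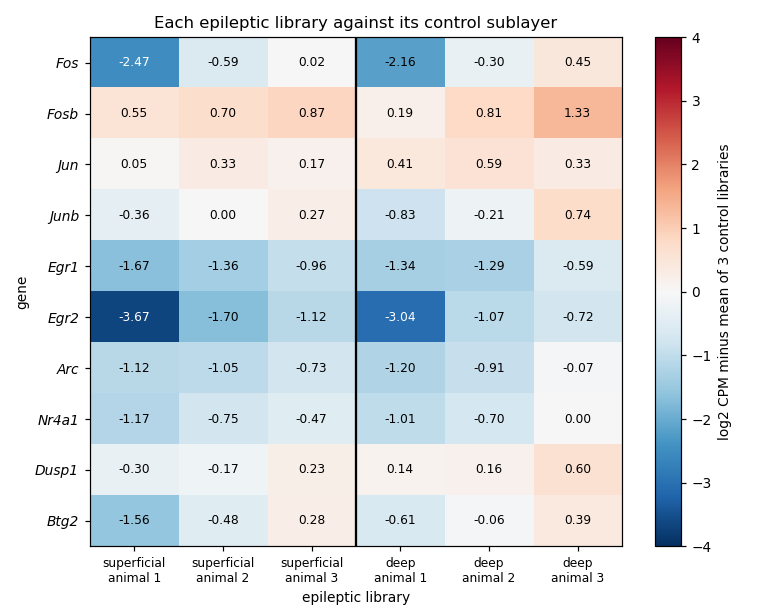
Log2 CPM of each epileptic library minus the mean of the 3 control libraries of its sublayer (colour and printed value), by library (columns) and gene (rows). Blue marks lower and red higher levels in the epileptic library. The Egr1, Egr2 and Arc rows hold only negative values and the Fosb and Jun rows only positive values. The columns of animal 1 hold the lowest values of Fos and Egr2.

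Relative to the mean, the SD between animals was larger in epileptic than in control rats for 6 of the 10 genes in superficial CA1, against 69.4% of all genes, and for 9 in deep CA1, against 70.1%. The SD of Fos was 68.4% of its mean in superficial epileptic and 21.5% in superficial control libraries, and 72.0% in deep epileptic and 11.7% in deep control libraries. For Egr2 the SD was 69.3% of the mean in superficial epileptic and 22.7% in superficial control libraries, and 63.3% in deep epileptic and 15.1% in deep control libraries. Jun went the other way in both sublayers, at 9.81% in superficial epileptic and 24.6% in superficial control libraries, and 9.23% in deep epileptic and 14.5% in deep control libraries. In superficial CA1 the SD was also the smaller in epileptic rats for Fosb, at 11.3% of the mean against 18.4% in control libraries, for Junb, at 21.4% against 25.2%, and for Arc, at 15.0% against 18.6%. A wider relative spread in epileptic rats was thus found in most of all genes. These spreads rest on 3 animals each and were not tested.

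The sublayers were then compared within animals, matched by replicate number, to ask whether superficial and deep CA1 hold different levels. In epileptic rats, Egr1, Egr2, Arc, Nr4a1 and Dusp1 were lower in superficial than in deep CA1 by 1.44 to 1.62-fold and passed the test, which is 5 of the 10 genes in this direction, against 5.00% of all genes. None of the 10 was called higher in superficial CA1, against 5.04% of all genes. In control rats Egr1 and Nr4a1 passed, again lower in superficial CA1, which is 2 of the 10 genes, against 4.18% of all genes, and none was called higher, against 4.26%. The median log2 fold change of the 10 genes was −0.50 in epileptic and −0.17 in control rats, beside 0.015 and 0.008 over all genes.

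Egr1 had the smallest p among the 10 genes in both conditions. In epileptic animals 1, 2 and 3 its superficial library lay below the deep one by log2 differences of −0.76, −0.51 and −0.81 (log2 fold change −0.69, SE 0.06, adjusted p = 1.11e-05), and in control animals by −0.54, −0.35 and −0.42 (log2 fold change −0.44, SE 0.06, adjusted p = 0.000377). All 6 animals showed the same direction. Nr4a1 gave −0.56, −0.45 and −0.87 in epileptic animals (log2 fold change −0.63, SE 0.08, adjusted p = 0.000157) and −0.56, −0.31 and −0.31 in control animals (log2 fold change −0.39, SE 0.07, adjusted p = 0.00399). The control call of Nr4a1 was lost without control animal 1 (log2 fold change −0.31, adjusted p = 0.0815; range over its alternatives 3.13e-07 to 0.832).

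Arc was also lower in the superficial library of all 6 animals. Its log2 differences were −0.20, −0.42 and −0.94 in epileptic animals (log2 fold change −0.53, SE 0.11, adjusted p = 0.0194) and −0.38, −0.22 and −0.23 in control animals, where it did not pass (log2 fold change −0.28, SE 0.11, adjusted p = 0.167). The epileptic call was lost without epileptic animal 2 (adjusted p = 0.0569) and without control animal 2, whose libraries enter the shared spread (adjusted p = 0.0555; range over its alternatives 1.02e-15 to 0.656). Dusp1 gave −0.73, −0.61 and −0.66 in epileptic animals (log2 fold change −0.67, SE 0.09, adjusted p = 0.000226) and −0.43, −0.40 and −0.03 in control animals (log2 fold change −0.29, SE 0.09, adjusted p = 0.0590). The epileptic values of Dusp1 were close together, while 1 of the 3 control animals showed almost no difference. In control rats Dusp1 passed in 5 of its 10 alternatives (adjusted p over them 0.0268 to 0.751). Arc passed there in 3 of 10 (adjusted p over them 0.000167 to 0.914).

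Egr2 differed between the sublayers in epileptic rats, at −0.71, −0.70 and −0.47 (log2 fold change −0.61, SE 0.12, adjusted p = 0.00590), and its control values of −0.30, −0.04 and 0.12 lay around 0 (log2 fold change −0.07, SE 0.09, adjusted p = 0.723). Its call was lost without epileptic animal 2 (log2 fold change −0.54, adjusted p = 0.0895; range over its alternatives 7.06e-05 to 0.875). Btg2 was lower in the superficial library of all 6 animals, at −1.0, −0.46 and −0.16 in epileptic and −0.04, −0.04 and −0.06 in control animals, and did not pass in either condition (adjusted p = 0.0539 and 0.882). The number of genes lower in superficial CA1 of all 6 animals was 5 of 10 (Arc, Btg2, Dusp1, Egr1 and Nr4a1), against 10.5% of all genes.

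Fosb alone was higher in the superficial library of all 6 animals, against 11.0% of all genes. It gave log2 differences of 0.88, 0.41 and 0.06 in epileptic animals (log2 fold change 0.43, SE 0.15, adjusted p = 0.0782) and 0.56, 0.83 and 0.18 in control animals (log2 fold change 0.51, SE 0.17, adjusted p = 0.0880), and passed in neither. Fos gave −0.15, −0.12 and −0.26 in epileptic animals (log2 fold change −0.19, SE 0.11, adjusted p = 0.298) and −0.01, 0.14 and 0.36 in control animals (log2 fold change 0.17, SE 0.10, adjusted p = 0.339). Jun gave −0.15, −0.05 and 0.04 in epileptic animals (log2 fold change −0.05, SE 0.08, adjusted p = 0.744) and 0.10, 0.40 and 0.11 in control animals (log2 fold change 0.21, SE 0.09, adjusted p = 0.162). Junb, at 0.20, −0.06 and −0.74 in epileptic and −0.53, −0.40 and 0.12 in control animals, had no common direction. Fosb passed in both conditions without the low-count filter (adjusted p = 0.00667 in epileptic and 0.00594 in control rats) and without epileptic animal 3 (adjusted p = 0.00633 and 0.0228 in the same order), and in control rats without epileptic animal 1 (adjusted p = 0.0303). Junb passed without the filter at log2 fold changes of −0.23 in epileptic (adjusted p = 0.0404) and −0.26 in control rats (adjusted p = 0.0160).

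**Figure D4:**
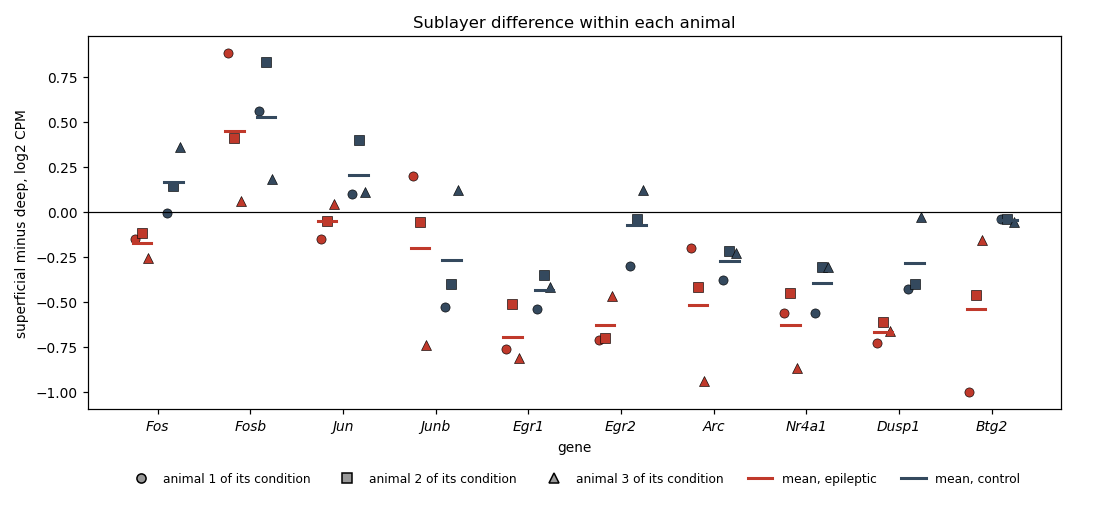
Superficial minus deep log2 CPM within each animal (y axis) for each gene (x axis), with red for epileptic and dark blue for control rats, a symbol per animal and a line at the mean of the 3. Egr1, Arc, Nr4a1, Dusp1 and Btg2 points all lie below 0, Fosb points all lie above 0, and the epileptic points of Egr2, Dusp1, Btg2, Fos and Jun lie below their control points.

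The sublayer effect of epileptic rats was then tested directly against that of control rats. None of the 10 genes passed in edgeR, where 0% of all genes passed. DESeq2 passed none of the 10 either. At an unadjusted p below 0.05 lay 6 of the 10 genes, against 6.60% of all genes, and all 6 had the more negative superficial minus deep difference in epileptic rats, against 2.56% of all genes in that direction. The difference between the log2 fold changes was −0.54 (SE 0.15, adjusted p = 0.406) for Egr2, −0.38 (SE 0.13, adjusted p = 0.589) for Dusp1 and −0.26 (SE 0.09, adjusted p = 0.591) for Egr1. It was −0.36 (SE 0.15, adjusted p = 0.729) for Fos, −0.24 (SE 0.11, adjusted p = 0.743) for Nr4a1 and −0.27 (SE 0.12, adjusted p = 0.743) for Jun. In Btg2, Dusp1, Egr2, Fos and Jun all 3 epileptic differences lay below all 3 control differences, against 6.06% of all genes. The median over the 10 genes was −0.26, beside −0.006 over all genes. In edgeR with all animals, Egr2, Arc and Dusp1 passed between sublayers in epileptic rats and not in control rats. For these genes the direct test gives no call that the 2 sublayer effects are unequal.

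Ordered by group mean, Egr1 averaged 86.3 ± 21.3 CPM in superficial epileptic, 141 ± 43.9 CPM in deep epileptic, 215 ± 38.6 CPM in superficial control and 289.5 ± 36.7 CPM in deep control libraries (SD, n = 3 each). Arc held the same order, with 102 ± 15.3 CPM in superficial epileptic, 154 ± 65.8 CPM in deep epileptic, 201 ± 37.2 CPM in superficial control and 242 ± 31.2 CPM in deep control libraries. Nr4a1 held it too, with 49.9 ± 11.8 CPM in superficial epileptic, 78.8 ± 29.5 CPM in deep epileptic, 86.3 ± 17.3 CPM in superficial control and 112 ± 14.1 CPM in deep control libraries. Egr2 was likewise lowest in superficial epileptic libraries, at 5.26 ± 3.65 CPM, with 7.92 ± 5.01 CPM in deep epileptic, 19.3 ± 4.38 CPM in superficial control and 20.0 ± 3.03 CPM in deep control libraries. Between neighbours in these orders the values of Arc and Nr4a1 overlapped at every step, and those of Egr1 overlapped only between deep epileptic and superficial control libraries. Fosb had the opposite order of conditions, with 9.86 ± 1.11 CPM in superficial epileptic and 7.52 ± 2.90 CPM in deep epileptic libraries, against 6.06 ± 1.11 CPM in superficial control and 4.32 ± 1.65 CPM in deep control libraries.

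Across the 12 libraries the standardised log2 CPM of the 10 genes was averaged to a common profile, a description with no test, since libraries share animals and each gene enters the mean. Fos, Junb, Egr1, Egr2, Arc, Nr4a1, Dusp1 and Btg2 correlated with it at a Pearson r of 0.63 to 0.90, and Fosb and Jun at 0.01 and 0.02. Among 9388 other identifiers with a mean log2 CPM of at least 3, ENSRNOG00000004613 was most like it (r = 0.93), with 350 CPM on average in epileptic and 361 CPM in control libraries. ENSRNOG00000021729 came next (r = 0.92), with 34.0 CPM in epileptic and 41.1 CPM in control libraries. The most opposite were ENSRNOG00000011157 (r = −0.93) and ENSRNOG00000002855 (r = −0.92).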

How the data were processed

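The deposited values are raw read counts per Ensembl gene identifier in 1 library, which the authors did not normalize. Per the submitters' processing notes the tools were STAR 2.5.0c, HTSeq 0.6.1, SAMtools 0.1.19 and FastQC 0.11.3, with the build Rnor_6.0. The sources used here do not say whether counting used strand, so reads of a gene on the opposite strand may be included. The 5 tallies at the end of each table name no gene and entered neither library sizes nor tests; those for alignments outside exons or assigned to no gene are given as shares where they matter. The reference table paired 0 of 32662 identifiers with a symbol, so lists of further activity-regulated genes and of cell type markers were not analysed here.

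Tests used edgeR 4.0.16 in R 4.3.3 with filterByExpr (minimum count 10, minimum total 15), TMM scaling, the quasi-likelihood test with robust dispersions, and Benjamini-Hochberg adjustment over all genes tested at a threshold of 0.05. The sublayer model held all 12 libraries and 1 coefficient per animal. Epilepsy was tested in 6 superficial libraries, 6 deep libraries or 6 sums per animal. SE is the absolute log2 fold change over the square root of F, an approximation. CPM uses the TMM-scaled sizes of all 12 libraries, and log2 CPM a prior count of 2. For epilepsy, a p-value rests on how far the 3 rats within each condition vary. In the sublayer tests and the test of their difference, the animal coefficients take up the level of each rat. Those p-values rest on how far superficial minus deep differences vary among animals, pooled over both conditions.

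The labels' protocols state that both sublayers were taken from each brain. Superficial and deep libraries of 1 condition with the same replicate number were taken to be of 1 rat, which their titles do not state. The deviations of libraries matched in this way from their group means correlated at 0.316 to 0.770. Epileptic and control animals that share a number are different rats. Their deviations in deep CA1 correlated at 0.218, 0.104 and 0.244, above the limit of 0.1 set for giving a blocked value. The blocked deep value is therefore given as an alternative fit, although the design does not pair these rats. The chi-square per gene between replicates was 6.84 to 115, so none was a duplicate. All 10 genes are named by rule. The genes, lists and tests were chosen with earlier results of these data known. The tests were checked on simulated data. Alternatives were DESeq2 1.42.0, RLE size factors, no filter, the block, the share outside exons as a covariate, and leaving out each animal.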

Additional observations from a re-analysis of the deposited data

How the results depend on the processing

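Each of the 10 genes had at least 30 counts in every library from 3 animals per condition. Of 630 values of single genes under an alternative, 535 kept their direction and their side of the threshold, 51 came to pass it, 11 no longer passed and 33 changed sign without passing. Where a cause is not named, the cause was not tested.
Between sublayers in epileptic rats, 1484 of all genes and 5 of the 10 passed in edgeR, 811 and 5 in DESeq2, 1489 and 5 with RLE size factors, 2132 and 8 without the filter, and 536 to 2217 and 3 to 7 without 1 animal. Between sublayers in control rats, 1248 of all genes and 2 of the 10 passed in edgeR, 815 and 2 in DESeq2, 1228 and 3 with RLE size factors, 1910 and 6 without the filter, and 416 to 2071 and 1 to 5 without 1 animal. For the difference between sublayer effects, 0 of all genes and 0 of the 10 passed in edgeR, 2 and 0 in DESeq2, 0 and 0 with RLE size factors, 178 and 0 without the filter, and 0 to 84 and 0 to 0 without 1 animal. For epilepsy in superficial CA1, 2 of all genes and 0 of the 10 passed in edgeR, 885 and 4 in DESeq2, 2 and 0 with RLE size factors, 130 and 1 without the filter, 5 and 0 with the covariate, and 0 to 1443 and 0 to 4 without 1 animal. For epilepsy in deep CA1, 0 of all genes and 0 of the 10 passed in edgeR, 376 and 1 in DESeq2, 8 and 0 with RLE size factors, 103 and 0 without the filter, 99 and 3 with the covariate, and 0 to 552 and 0 to 3 without 1 animal. For epilepsy in the summed libraries, 5 of all genes and 0 of the 10 passed in edgeR, 919 and 2 in DESeq2, 5 and 0 with RLE size factors, 93 and 0 without the filter, 21 and 1 with the covariate, and 0 to 1417 and 0 to 3 without 1 animal.
Without the animal as a block, 5 of all genes and 0 of the 10 passed between sublayers in epileptic rats, and 5 and 0 in control rats. Blocking on the replicate number gave 25 of all genes and 3 of the 10 (Egr1, Arc and Nr4a1) for epilepsy in superficial CA1, 239 and 1 (Egr1) in deep CA1, and 19 and 1 (Egr1) in the sums. Correlations between animals of 1 number did not all exceed 0.1 in superficial libraries (r = 0.212, 0.00252 and 0.170) or in the sums (r = 0.268, 0.0615 and 0.237). In the labels these animals share only a number, also in deep CA1. Whether they shared anything else, such as a batch, was not tested.

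Log2 fold changes that changed sign were uncalled before and after. Junb changed to −0.07 without the block for the difference between sublayer effects, to −0.09 with the block and −0.92 with the covariate for deep epilepsy, and to 0.0041 in DESeq2 and 0.0038 with RLE size factors for summed epilepsy. With the covariate, superficial Jun changed to −0.14 and summed Dusp1 to −0.08. Without 1 animal, Junb lay at −0.42 to 0.06 between sublayers in epileptic rats, at −0.15 to 0.33 for the difference between sublayer effects, and for epilepsy at −0.21 to 0.14 in superficial, −0.50 to 0.34 in deep and −0.35 to 0.24 in summed libraries. Fosb lay at −0.28 to 0.13 for the difference between sublayer effects and Egr2 at −0.16 to 0.04 between sublayers in control rats. For epilepsy, deep Fos lay at −0.96 to 0.12, Btg2 at −0.32 to 0.19 in deep and −0.60 to 0.08 in summed libraries, and Dusp1 at −0.23 to 0.07 in superficial and −0.02 to 0.25 in summed libraries.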
